A study of Homo sapiens with 9 samples.

Results

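Genes that build glycerolipids and phospholipids, and genes that coat, fill and empty lipid droplets, were followed in HT-29 cells, an established human colon adenocarcinoma line. Members were chosen by symbol: those starting with the letters of the acyltransferase, lipin, perilipin, acyl-CoA synthetase, patatin-like and phospholipid head-group families, plus a few single genes such as ABHD5, MGLL, HILPDA and FITM2. The letters took 59 of the 14884 genes with a named row on the array. Of these, 51 act on glycerolipids, phospholipids or lipid droplets and are the members described here. The other 8 share only letters or ancestry with them and are given apart at the end: 6 G-patch genes, the ghrelin acyltransferase MBOAT4 and the pseudogene CIDECP1. Of the 51 members, 46 passed a filter that left out the dimmest 25% of genes by their mean over all 9 arrays (a log2 level under 4.50). ACSL6, MOGAT1, MOGAT2, DGAT2L6 and PNPLA3 did not pass.

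The 9 arrays hold total RNA of whole HT-29 cultures in 3 groups of 3: untreated cells, which received the vehicle according to the treatment protocol, cells given rosemary extract, a plant extract rich in polyphenols, and cells given carnosic acid, a phenolic diterpene of rosemary. All were sampled at 24 h, and the replicates are called biological. The cultures carried no genetic change, and no concentration is stated in the labels used here for either agent. Of 9 colon epithelial markers with a named row (EPCAM, VIL1, CDX1, CDX2, KRT8, KRT18, KRT19, KRT20 and GPA33) all 9 lay over the dim limit. With the extract 1 of them was called higher and 3 lower, and with carnosic acid 2 higher and 3 lower. Their summed level (log2) was 13.61 to 13.66 in untreated cells, 13.43 to 13.56 with the extract and 13.63 to 13.65 with carnosic acid, and the part of this shift in the results was not tested. Of 6 adipocyte markers, PLIN1, CIDEA, CIDEC and CFD lay over the dim limit, LEP and LPL did not, and 0 were called in any comparison. PLIN1, CIDEA and CIDEC are also members of the set. Of 6 hepatocyte markers 3 lay over the limit and 0 were called, and of 2 fibroblast markers 0 lay over it. The leukocyte markers CD14, CD68 and LYZ all lay over it. Of these, 1 was called higher and 1 lower with the extract, and 1 higher with carnosic acid. In RNA of whole cultures, fewer cells of a kind and less RNA per cell cannot be told apart.

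Cells make glycerolipids from fatty acids that acyl-CoA synthetases (ACSL) have activated. Glycerol-3-phosphate acyltransferases (GPAT) attach the first acyl chain and AGPAT enzymes the second, which gives phosphatidic acid. Lipins remove its phosphate to give diacylglycerol, which DGAT enzymes turn into triacylglycerol for storage and choline- or ethanolamine-transferring enzymes turn into phospholipids. Alternatively CDS enzymes turn phosphatidic acid into CDP-diacylglycerol. Stored triacylglycerol sits in lipid droplets coated by perilipins (PLIN) and is released by the lipase PNPLA2 with its activator ABHD5.

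Expression is given as RMA values on a log2 scale, where a difference of 1 is a 2-fold difference. Levels of different genes are not compared, since each row has its own probes. A gene is called higher or lower where limma's two-sided test, fitted to 11163 genes on all 9 arrays and adjusted by Benjamini-Hochberg, gave an adjusted p under 0.05. Array medians lay between 4.82 and 4.90, and arrays of 1 group correlated at 0.991 or above over all rows. With 3 arrays per group, that number limits how precise each value is.

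With rosemary extract, 14 of the 46 tested members were called higher and 6 lower. Over all genes tested, 38.1% were called, 21.8% higher and 16.3% lower. With carnosic acid, 13 members were called higher and 0 lower, against 19.0% of all genes, 12.9% higher and 6.12% lower. At an unadjusted p under 0.05, 14 members were higher and 1 lower with carnosic acid. The median change of the members was 0.07 with the extract and 0.09 with carnosic acid (log2), beside -0.018 and -0.011 over all genes tested. Both comparisons share the untreated arrays. Of the members called higher, 11 were called with both treatments, 3 with the extract and not carnosic acid, and 2 the reverse. Among the members called higher with 1 treatment only, LPCAT2 was the single one also called between the treatments. The others called higher with 1 treatment only therefore do not show a difference between the treatments. Of the 46 members, 24 were called in no comparison. Over all genes, the overlap of the calls and the share called in no comparison were not counted. The extract and untreated arrays did not overlap for 25 members in either direction, where 46.7% of all genes lay apart. The carnosic acid and untreated arrays lay apart for 18 members, beside 32.8% of all genes.

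**Figure D1:**
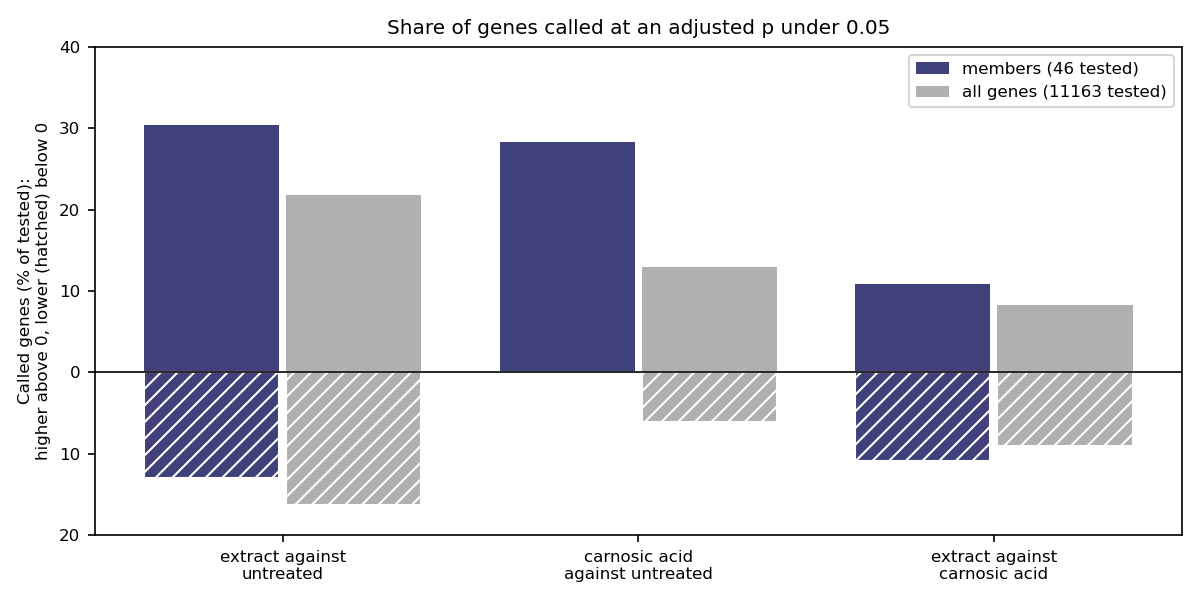
Share of genes called at an adjusted p under 0.05 in each comparison, in percent of the genes tested, for the 46 members and for all 11163 genes; plain bars above 0 are calls higher in the group named first and hatched bars below 0 are calls lower. With carnosic acid 28.3% of the members and 12.9% of all genes were called higher, and no member was called lower.

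Against untreated cells, GPAT3, ACSL1, PNPLA8, PLIN2 and LPIN2 were called higher with both treatments, and each was also called higher with the extract than with carnosic acid. How many of all genes share this pattern was not counted. Sequence upstream of the transcription starts of these 5 genes is shown. Each window holds the 250 bases before a start site, from RefSeq (GRCh38.p14), 5′ to 3′ on the strand of the gene. Capitals mark matches to any of 7 short motifs. Where a gene had several start sites, the window with most matches was printed, and otherwise the outermost, a choice made after the windows were searched.

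GPAT3 (chr4:83535857-83536106, plus strand, the outer of 2 start sites 1 base apart, no match): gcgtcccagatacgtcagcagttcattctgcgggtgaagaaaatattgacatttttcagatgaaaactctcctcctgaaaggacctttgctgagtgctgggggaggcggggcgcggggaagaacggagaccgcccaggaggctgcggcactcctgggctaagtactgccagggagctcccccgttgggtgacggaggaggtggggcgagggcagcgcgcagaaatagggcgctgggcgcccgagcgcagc

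ACSL1 (chr4:184805554-184805803, minus strand, the innermost of 5 start sites): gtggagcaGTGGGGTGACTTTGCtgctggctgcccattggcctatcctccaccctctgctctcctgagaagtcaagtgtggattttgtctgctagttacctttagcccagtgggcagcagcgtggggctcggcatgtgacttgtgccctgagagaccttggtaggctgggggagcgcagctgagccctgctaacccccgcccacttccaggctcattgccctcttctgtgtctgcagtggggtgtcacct

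PNPLA8 (chr7:108526136-108526385, minus strand, the inner of 2 start sites): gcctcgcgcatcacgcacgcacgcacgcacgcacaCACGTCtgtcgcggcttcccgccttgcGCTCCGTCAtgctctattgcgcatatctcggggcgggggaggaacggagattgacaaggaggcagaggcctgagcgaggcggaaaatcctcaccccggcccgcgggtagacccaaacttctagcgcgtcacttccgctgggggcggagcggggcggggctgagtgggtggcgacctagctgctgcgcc

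PLIN2 (chr9:19127493-19127742, minus strand, 1 start site): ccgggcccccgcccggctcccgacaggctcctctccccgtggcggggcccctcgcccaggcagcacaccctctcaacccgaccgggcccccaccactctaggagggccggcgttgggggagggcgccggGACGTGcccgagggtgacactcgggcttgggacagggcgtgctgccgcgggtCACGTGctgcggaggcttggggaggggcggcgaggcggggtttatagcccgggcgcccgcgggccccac

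LPIN2 (chr18:3013145-3013394, minus strand, the outer of 2 start sites): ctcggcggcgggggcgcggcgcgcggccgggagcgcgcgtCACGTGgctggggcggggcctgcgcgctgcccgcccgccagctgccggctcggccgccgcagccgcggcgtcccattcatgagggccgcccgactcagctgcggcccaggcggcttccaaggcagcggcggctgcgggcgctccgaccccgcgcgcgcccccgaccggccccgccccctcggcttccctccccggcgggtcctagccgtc

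Motifs were searched on both strands. The antioxidant response element TGACNNNGC matched in 10.9% of all 35116 windows of this length and in 17 of 72 windows of the members, which belong to 39 genes. It was found in an ACSL1 and a PNPLA8 window printed above. In the ACSL1 window it overlaps a match to the sterol response element TCACNCCAC, read on the other strand, which 0.883% of all windows hold. The hypoxia response core GACGTG (6.50% of all windows) lies 121 bases before the PLIN2 start and, on the other strand, in the PNPLA8 window. The E-box CACGTG (6.34%) lies 69 bases before the PLIN2 start and 210 bases before that of LPIN2. The core TACGTG (2.76%) was found in 2 windows of the members, neither of them printed. The PPAR direct repeat with 1 base between its copies (0.0171%) and the amino acid response element TTGCATCA (0.772%) matched in 0 of the 72 windows. Median GC content was 63.2% in the member windows and 58% in all windows. Windows of 1 gene can also overlap, as those of GPAT3 do. Counts in the members and shares of all windows are therefore not like for like, and differences between them were not tested. The matches are descriptions of letters, and no binding was measured.

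GPAT3, the enzyme that adds the first acyl chain to glycerol-3-phosphate in the endoplasmic reticulum, changed most among the members (array row 16968447). It was at 7.42, 7.35 and 7.45 (log2) on the untreated arrays, at 9.80, 9.89 and 9.67 with the extract and at 9.23, 9.18 and 8.99 with carnosic acid. The 3 groups did not overlap, with the extract highest and untreated cells lowest. It rose 5.21-fold with the extract (log2 change 2.38 ± 0.08, SE, adjusted p = 5.98e-09) and 3.31-fold with carnosic acid (1.73 ± 0.08, adjusted p = 3.62e-07). With the extract it was 1.58-fold higher than with carnosic acid (0.66 ± 0.08, adjusted p = 1.30e-04). No other GPAT gene and no AGPAT gene was analysed here.

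ACSL1, an acyl-CoA synthetase that activates long-chain fatty acids, followed in size (array row 16982047). Its values were 6.05, 6.48 and 6.40 (log2) in untreated cells, 8.25, 8.27 and 7.87 with the extract and 7.85, 7.39 and 7.59 with carnosic acid. Every treated array lay above every untreated one, and the lowest extract array lay just above the highest carnosic acid array. The gene rose 3.53-fold with the extract (1.82 ± 0.15, adjusted p = 2.03e-06) and 2.46-fold with carnosic acid (1.30 ± 0.15, adjusted p = 1.41e-04). The difference between the treatments was 0.52 ± 0.15 (adjusted p = 0.0320). That call was lost without rosemary extract replicate 1 (adjusted p = 0.124) or 2 (0.134), without carnosic acid replicate 2 (0.124) or 3 (0.0946), and in a fit to every array row (0.116). ACSL5, the synthetase typical of intestinal epithelium, rose by 0.46 ± 0.06 (log2) with the extract and by 0.35 ± 0.06 with carnosic acid. ACSL4, which prefers arachidonic acid, did not pass (0.01 and 0.03, with 95% intervals of -0.11 to 0.14 and -0.10 to 0.15). ACSL3 was not analysed here.

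Among the 3 lipins, which turn phosphatidic acid into diacylglycerol, LPIN2 and LPIN1 were called higher with the extract and LPIN2 with carnosic acid. LPIN2 was at 8.82, 8.74 and 8.90 (log2) in untreated cells, 9.61, 9.61 and 9.50 with the extract and 9.15, 9.13 and 9.05 with carnosic acid. These groups were fully apart. LPIN2 rose by 0.75 ± 0.06 (adjusted p = 1.90e-06) and by 0.29 ± 0.06 (adjusted p = 0.00663), and differed between the treatments by 0.46 ± 0.06 (adjusted p = 2.90e-04). LPIN1 values were 5.93, 6.10 and 6.03 in untreated cells, 6.73, 6.45 and 6.45 with the extract and 6.30, 6.28 and 6.13 with carnosic acid, again without overlap. LPIN1 rose by 0.52 ± 0.10 with the extract (adjusted p = 0.00135) and did not pass with carnosic acid (0.22 ± 0.10, adjusted p = 0.157). Its difference between the treatments did not pass either (0.31 ± 0.10, adjusted p = 0.0580), although it did with the dimmer 50% of genes left out (0.0400). LPIN3 had changes of 0.06 and 0.20, neither called.

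The enzymes of the last step to triacylglycerol were not called. DGAT1 was at 8.45, 8.64 and 8.55 (log2) in untreated cells, 8.42, 8.45 and 8.55 with the extract and 8.55, 8.63 and 8.62 with carnosic acid. DGAT2 was at 6.26, 6.42 and 6.31, at 6.15, 6.13 and 6.23, and at 6.29, 6.25 and 6.42 in the same order. The DGAT1 groups overlapped in both comparisons, and the DGAT2 values with the extract lay below the untreated ones. For DGAT1 the change was -0.075 with the extract (95% interval -0.22 to 0.07) and 0.05 with carnosic acid (-0.10 to 0.19). For DGAT2 it was -0.16 (-0.35 to 0.02) and -0.011 (-0.19 to 0.17). MOGAT3, a monoacylglycerol acyltransferase, had changes of 0.04 and -0.070. Of these 3 genes 0 passed an unadjusted p under 0.05 in any comparison, and intervals are unadjusted. MOGAT1, MOGAT2 and DGAT2L6 were dim, with highest values of 3.47, 4.66 and 4.12.

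**Figure D2:**
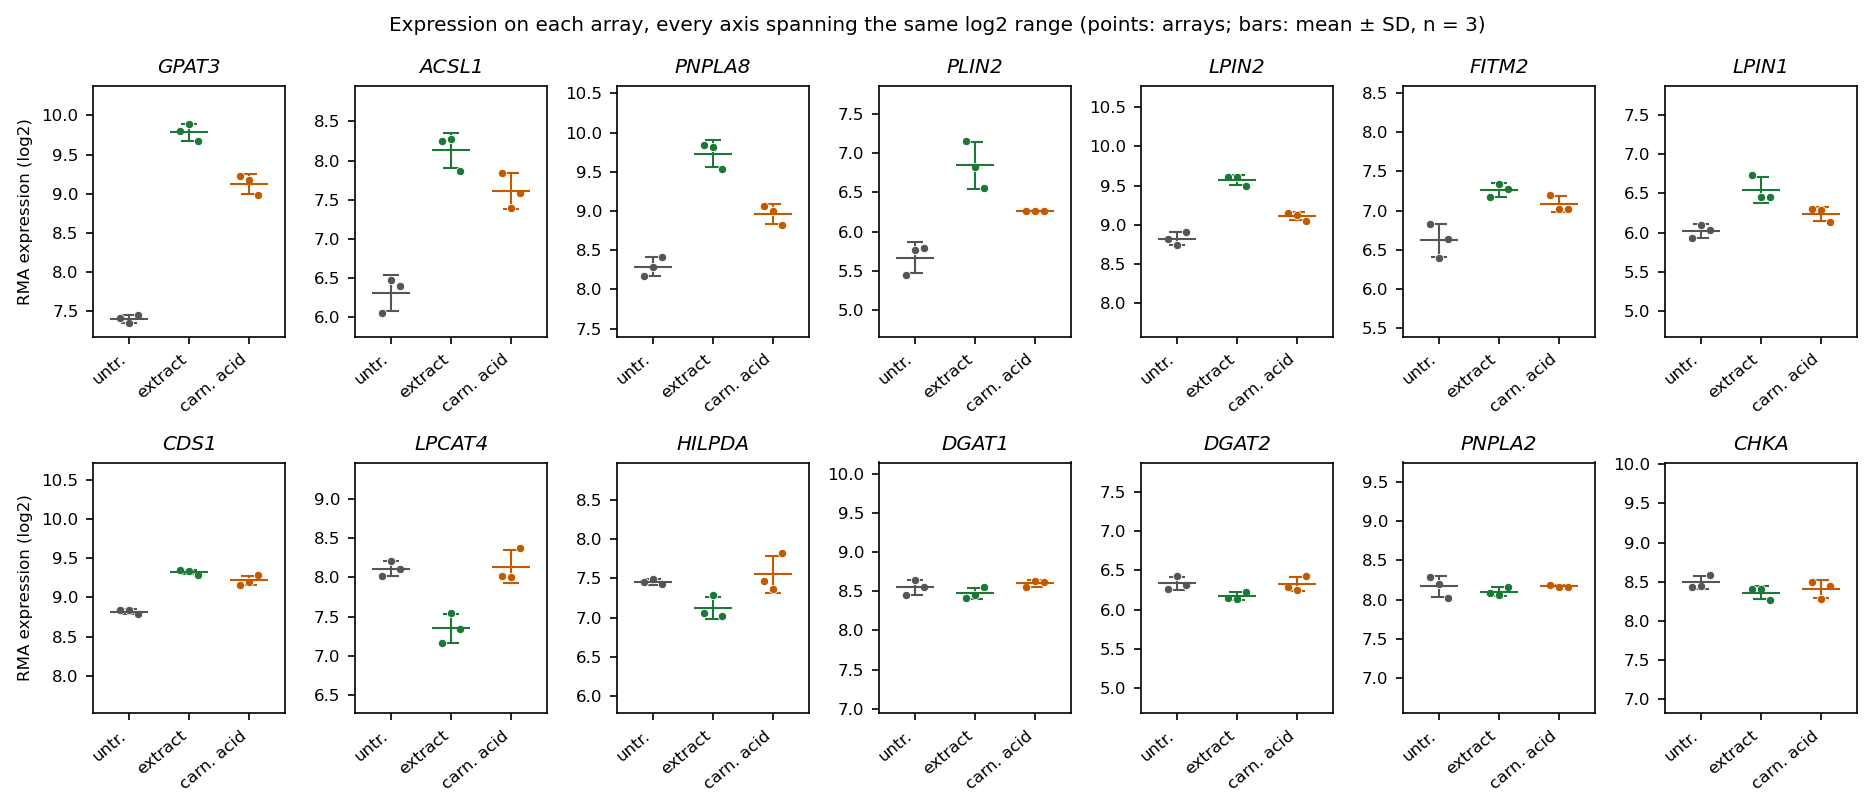
RMA expression (log2) of 14 members on each of the 9 arrays, every axis spanning the same log2 range; points are arrays and bars the mean ± SD of 3. GPAT3, ACSL1, PNPLA8, PLIN2 and LPIN2 step from untreated through carnosic acid to the extract, LPCAT4 is low with the extract, and DGAT1, DGAT2, PNPLA2 and CHKA move little.

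Among the 9 droplet coat and assembly genes, 3 were called higher and 2 lower with the extract, and 3 higher and 0 lower with carnosic acid (0 lower at an unadjusted p under 0.05). BSCL2 and PLIN4 were not analysed here. Of all genes tested, 21.8% were called higher and 16.3% lower with the extract, and 12.9% and 6.12% with carnosic acid. PLIN2, the perilipin that coats droplets in most cell types, was at 5.44, 5.77 and 5.79 (log2) in untreated cells and at 7.15, 6.82 and 6.56 with the extract. All 3 carnosic acid arrays gave the same value, 6.26. RMA can give several arrays exactly the same value, and 47.8% of all genes had a value shared by at least 2 arrays. Among tested genes, 152 had 1 value on all 3 carnosic acid arrays, CIDEB among them. The true spread of PLIN2 with carnosic acid is therefore not shown by these arrays, and limma takes the spread from all 3 groups and from genes of like level. PLIN2 rose 2.26-fold with the extract (1.18 ± 0.14, adjusted p = 4.44e-05) and 1.51-fold with carnosic acid (0.59 ± 0.14, adjusted p = 0.0128). Leaving out untreated replicate 1 ended the second call (adjusted p = 0.0535). The treatments differed by 0.58 ± 0.14 (adjusted p = 0.0142), a call lost without rosemary extract replicate 1 (0.0547) and in a fit to every array row (0.0601).

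FITM2, a protein of the endoplasmic reticulum that takes part in droplet budding, was at 6.83, 6.40 and 6.64 (log2) in untreated cells. It was at 7.18, 7.34 and 7.28 with the extract and at 7.20, 7.02 and 7.02 with carnosic acid, so all treated arrays were above the untreated ones. FITM2 rose by 0.64 ± 0.11 (adjusted p = 5.48e-04) and by 0.46 ± 0.11 (adjusted p = 0.0116), the latter lost without carnosic acid replicate 1 (adjusted p = 0.0555). PLIN3, a perilipin that moves from the cytosol onto young droplets, rose by 0.48 ± 0.08 and 0.39 ± 0.08.

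HILPDA, a hypoxia-inducible inhibitor of the lipase PNPLA2, went the other way with the extract. It was at 7.45, 7.50 and 7.43 (log2) in untreated cells, 7.06, 7.29 and 7.02 with the extract, and 7.47, 7.37 and 7.82 with carnosic acid. The extract arrays lay below all others, while the carnosic acid arrays overlapped the untreated ones. HILPDA fell by 0.34 ± 0.11 with the extract (adjusted p = 0.0369), a call lost in 7 of 18 other settings, among them without untreated replicate 1 (0.0814), 2 (0.100) or 3 (0.0652) and rosemary extract replicate 1 (0.116) or 3 (0.114). With carnosic acid its change was 0.09 ± 0.11 (adjusted p = 0.618). CIDEB, which takes part in loading fat into lipoproteins, fell by 0.25 ± 0.09 with the extract (adjusted p = 0.0442), a call lost in 12 of 17 settings, including without untreated replicate 1 (0.147) or 2 (0.0654), rosemary extract replicate 1 (0.0813) or 2 (0.168), or any carnosic acid array (0.0542 to 0.0581), and with the replicate block (0.0636). PLIN1, PLIN5, CIDEA and CIDEC had changes between -0.12 and 0.18 in both comparisons and none was called.

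Of the 6 tested lipolysis genes, 1 was called with the extract and 0 with carnosic acid (0 at an unadjusted p under 0.05). The lipase gene LIPE was not analysed here. Over all genes tested, 38.1% were called with the extract and 19.0% with carnosic acid. PNPLA2, the adipose triglyceride lipase, was at 8.29, 8.20 and 8.02 (log2) in untreated cells, 8.08, 8.06 and 8.17 with the extract and 8.18, 8.17 and 8.17 with carnosic acid. The groups overlapped, and the changes were -0.069 (95% interval -0.23 to 0.09) and 0.0016 (-0.16 to 0.16). A dimmer row of PNPLA2 (mean 7.19) moved more, by -0.47 and -0.49, with adjusted p = 0.0444 and 0.0707 in the fit to all rows, and the 2 rows therefore disagree in size. With the mean of both rows PNPLA2 was at -0.27 with the extract (adjusted p = 0.0465). ABHD5, its activator, rose by 0.46 ± 0.14 with the extract (adjusted p = 0.0187), lost without rosemary extract replicate 2 (0.0630) and with all rows (0.0580). Untreated replicate 1 of ABHD5 was at 6.76, beside 7.43 and 7.25, and without it the change was 0.27, still called higher. Its direct difference between the treatments did not pass (0.21), except in a fit to the 6 arrays compared (adjusted p = 0.0470). MGLL, the monoacylglycerol lipase, did not pass (0.14 and 0.03). PNPLA1, PNPLA4 and PNPLA5 lay between -0.12 and 0.18, and PNPLA3 was dim (highest value 4.64).

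The patatin-like family also holds phospholipases. PNPLA8, a calcium-independent phospholipase A2 (array row 17061807), was at 8.17, 8.28 and 8.41 (log2) in untreated cells, 9.84, 9.81 and 9.54 with the extract and 9.06, 8.99 and 8.82 with carnosic acid. The groups were apart in the same order as for GPAT3. PNPLA8 rose 2.72-fold with the extract (1.44 ± 0.10, adjusted p = 4.41e-07) and 1.59-fold with carnosic acid (0.67 ± 0.10, adjusted p = 6.06e-04). The difference between the treatments, 0.77 ± 0.10, was the largest rise among the members in that comparison (adjusted p = 2.02e-04). PNPLA6, a lysophospholipase known as neuropathy target esterase, rose by 0.42 ± 0.09 with the extract and by 0.34 ± 0.09 with carnosic acid (adjusted p = 0.0182). The carnosic acid call was lost without untreated replicate 3 (0.0598), carnosic acid replicate 2 (0.0654) or 3 (0.0560) and with all rows (0.0534). PNPLA7 had changes of 0.06 and 0.15 and was not called.

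Lysophospholipid acyltransferases, which refill the free position of phospholipids and so set their acyl chains, went in both directions. LPCAT4 showed the largest fall of any member. It was at 8.02, 8.21 and 8.10 (log2) in untreated cells, 7.17, 7.54 and 7.35 with the extract and 8.02, 8.01 and 8.38 with carnosic acid. The extract arrays lay below all others, and the other 2 groups overlapped. LPCAT4 fell by 0.76 ± 0.12 with the extract (adjusted p = 3.02e-04), which is 1.69-fold, and its change with carnosic acid was 0.03 ± 0.12 (95% interval -0.23 to 0.28). The direct difference was -0.78 ± 0.12 (adjusted p = 7.33e-04).

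MBOAT7, which puts arachidonic acid into phosphatidylinositol, fell by 0.37 ± 0.10 with the extract (adjusted p = 0.0142), lost without untreated replicate 3 (0.0554) or rosemary extract replicate 1 (0.0677). LPGAT1 rose by 0.50 ± 0.08 with the extract and by 0.48 ± 0.08 with carnosic acid, and the direct difference was 0.02 (95% interval -0.15 to 0.19). LPCAT2 and LPCAT3 were the 2 members called higher with carnosic acid and not with the extract, by 0.21 ± 0.05 (adjusted p = 0.0209) and 0.29 ± 0.06 (adjusted p = 0.00654). LPCAT3 feeds polyunsaturated chains into phosphatidylcholine and phosphatidylethanolamine. The LPCAT2 call was lost in 6 of 18 settings, among them without untreated replicate 1 (0.0776) or 2 (0.0575) and carnosic acid replicate 2 (0.0674) or 3 (0.0700). Against untreated cells, LPCAT2 with the extract was at -0.13 (adjusted p = 0.0825), which passed as lower under median centring (0.0235), under cyclic loess (0.0261) and without rosemary extract replicate 1 (0.0291). LPCAT2 was lower with the extract than with carnosic acid by -0.34 ± 0.05 (adjusted p = 0.00121), while for LPCAT3 that difference did not pass (-0.17 ± 0.06, adjusted p = 0.0869). It did pass without untreated replicate 3 (0.0443), without carnosic acid replicate 1 (0.0488) and with the replicate block (0.0481). LPCAT3 with the extract had a change of 0.12 (adjusted p = 0.150) and passed as higher without untreated replicate 3 (0.18, adjusted p = 0.0301). LPCAT1 rose by 0.17 ± 0.06 with the extract (adjusted p = 0.0485), a call lost in 14 of 18 settings, with an adjusted p up to 0.165 (without rosemary extract replicate 1). Those 14 included leaving out any array but rosemary extract replicate 3 (0.0563 to 0.165), median centring (0.0967) and cyclic loess (0.139). MBOAT1 was not called.

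**Figure D3:**
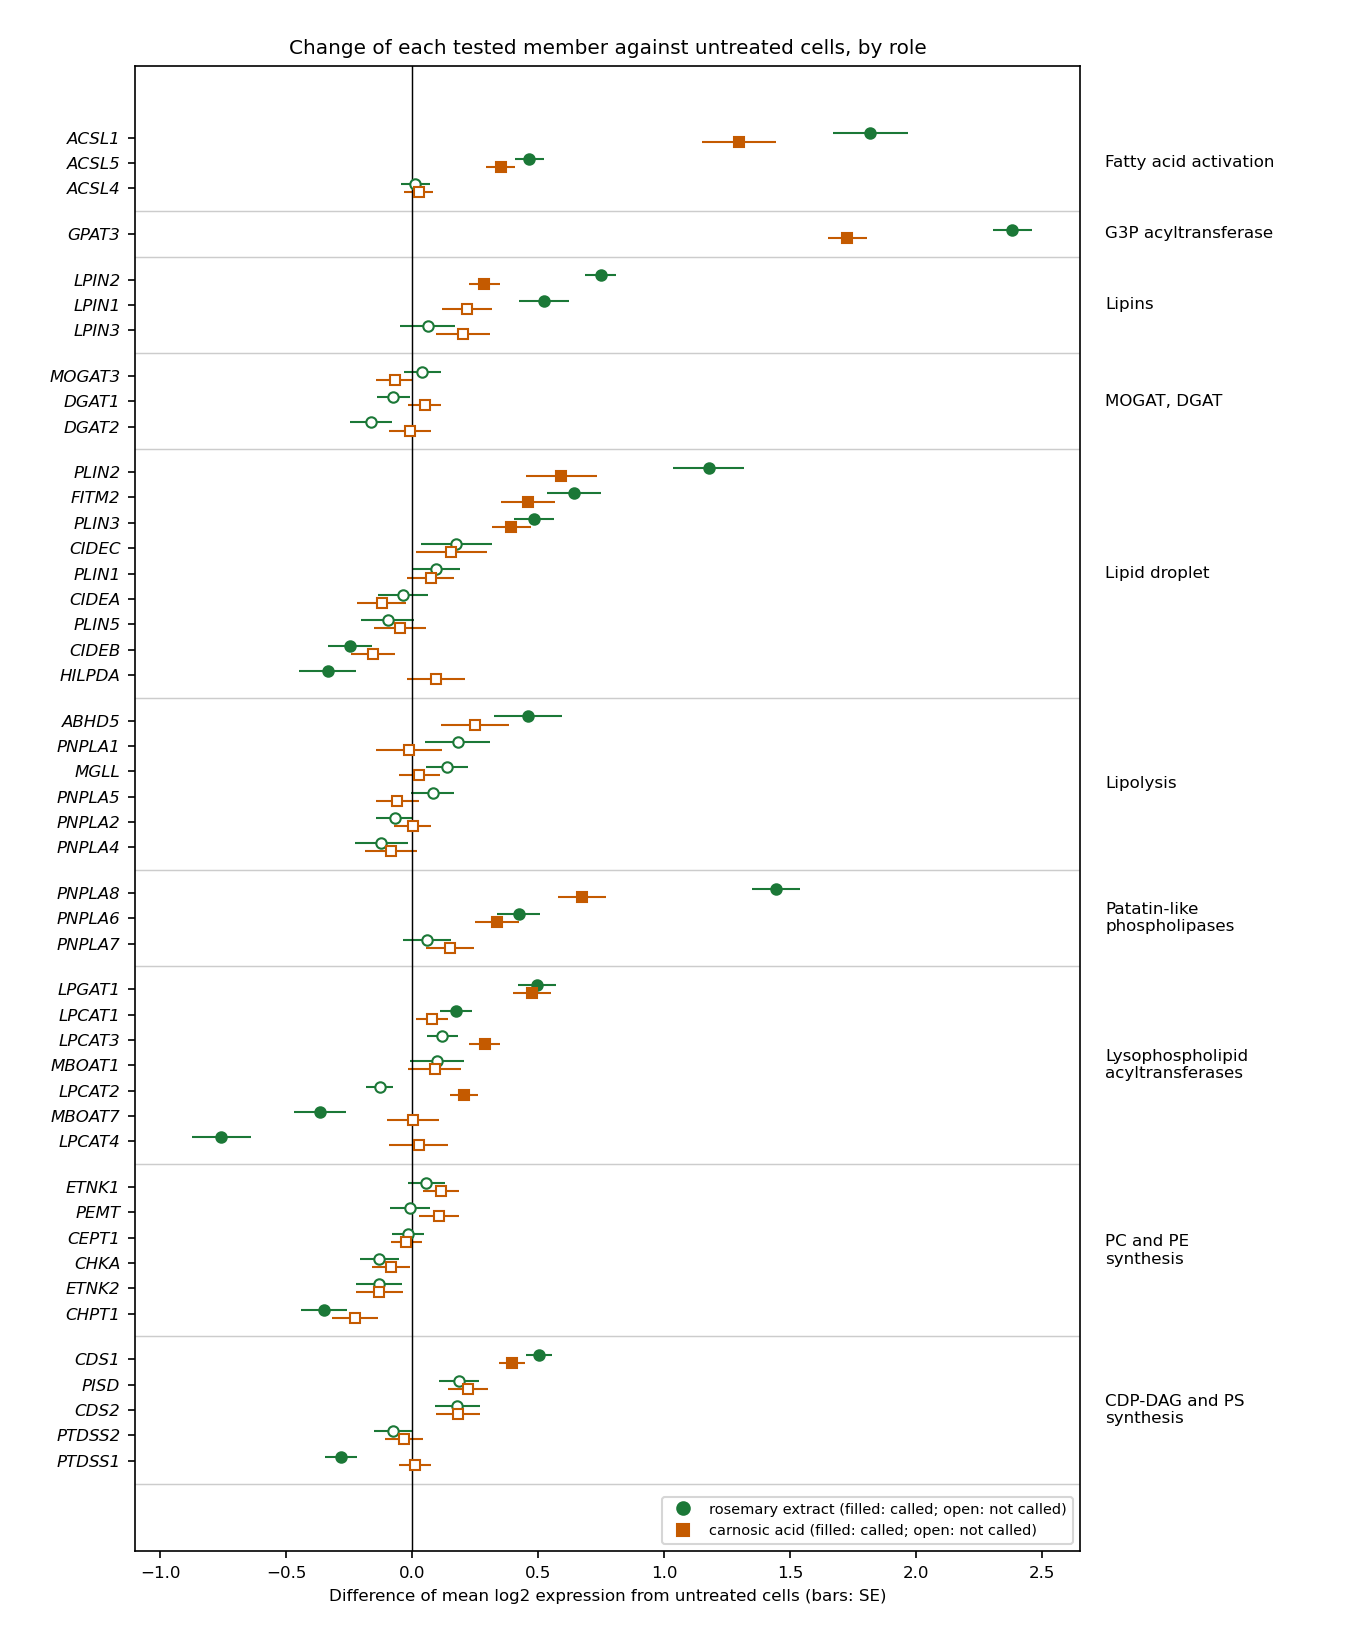
Difference of mean log2 expression from untreated cells for the 46 tested members, grouped by role; circles are rosemary extract, squares carnosic acid, bars the SE, and filled symbols were called. GPAT3, ACSL1, PNPLA8 and PLIN2 lie farthest to the right, LPCAT4 with the extract (-0.76) farthest to the left, and DGAT1, DGAT2 and MOGAT3 carry no filled symbol.

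Of the 6 members that make phosphatidylcholine and phosphatidylethanolamine, 0 were called higher than in untreated cells with either treatment. At an unadjusted p under 0.05 this count was also 0. With the extract, 1 of the 6 was called lower. That gene was CHPT1, which joins choline to diacylglycerol, at -0.35 ± 0.09 (log2, adjusted p = 0.00982). With carnosic acid it had a change of -0.23 (adjusted p = 0.110), and it was the 1 member with an unadjusted p under 0.05 and a lower level there. CHKA, choline kinase alpha, was at 8.43, 8.45 and 8.59 in untreated cells, 8.41, 8.41 and 8.27 with the extract and 8.50, 8.28 and 8.45 with carnosic acid. Its changes were -0.13 (95% interval -0.30 to 0.04) and -0.085 (-0.25 to 0.08), with the extract arrays just below the untreated ones. CEPT1, ETNK1, ETNK2 and PEMT had changes between -0.13 and 0.11. No PCYT gene and no CHKB was analysed here. SELENOI, an ethanolamine phosphotransferase outside the members, was called higher with both treatments (0.95 and 0.56) and is counted below with ether lipid synthesis. Over all genes tested, 21.8% were called higher and 16.3% lower with the extract, and 12.9% and 6.12% with carnosic acid.

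On the CDP-diacylglycerol branch, CDS1, the synthase that commits phosphatidic acid to phosphatidylinositol and cardiolipin, was at 8.83, 8.84 and 8.79 (log2) in untreated cells. It was at 9.35, 9.33 and 9.29 with the extract and at 9.16, 9.20 and 9.28 with carnosic acid. No group overlapped another. CDS1 rose by 0.50 ± 0.05 (adjusted p = 1.38e-05) and by 0.40 ± 0.05 (adjusted p = 3.66e-04), and the 0.11 ± 0.05 between the treatments did not pass (adjusted p = 0.210). CDS2 was at 0.18 in both comparisons without a call. PTDSS1, which makes phosphatidylserine from phosphatidylcholine, fell by 0.28 ± 0.06 with the extract (adjusted p = 0.00383), with 0.01 for carnosic acid. PISD, the mitochondrial phosphatidylserine decarboxylase, lay above all untreated arrays with both treatments but did not pass (0.19 and 0.22, adjusted p = 0.0886 and 0.0788). PTDSS2 was not called.

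Compared directly, the extract arrays were higher than the carnosic acid arrays for 5 members and lower for 5, where 17.3% of all genes were called, 8.24% higher and 9.07% lower. The 2 treated groups did not overlap for 16 members, beside 31.8% of all genes. The median difference of the members was 0.0024 (log2), beside 0.012 over all genes. The 5 higher members were PNPLA8, GPAT3, PLIN2, ACSL1 and LPIN2. The 5 lower ones were LPCAT4, HILPDA (-0.43 ± 0.11, adjusted p = 0.0229), MBOAT7 (-0.37 ± 0.10, adjusted p = 0.0284), LPCAT2 and PTDSS1 (-0.30 ± 0.06, adjusted p = 0.00712). The HILPDA call was lost without rosemary extract replicate 1 (0.0877) or 3 (0.0735), carnosic acid replicate 3 (0.0713), in a fit to the 6 arrays compared (0.0605) and with all rows (0.0844). That of MBOAT7 was lost without rosemary extract replicate 1 (0.123) or 2 (0.0963) or carnosic acid replicate 2 (0.102) or 3 (0.114), in a fit to the 6 arrays compared (0.0557) and with all rows (0.0991). Without rosemary extract replicate 1 the counts were 3 higher and 3 lower, and without carnosic acid replicate 3 the lower count was 3. Since the doses are unknown, these differences compare the cultures as treated and not the agents at 1 dose. For 6 members called higher with both treatments (ACSL5, CDS1, FITM2, LPGAT1, PLIN3 and PNPLA6) the direct difference did not pass, which does not show that the treatments acted alike.

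**Figure D4:**
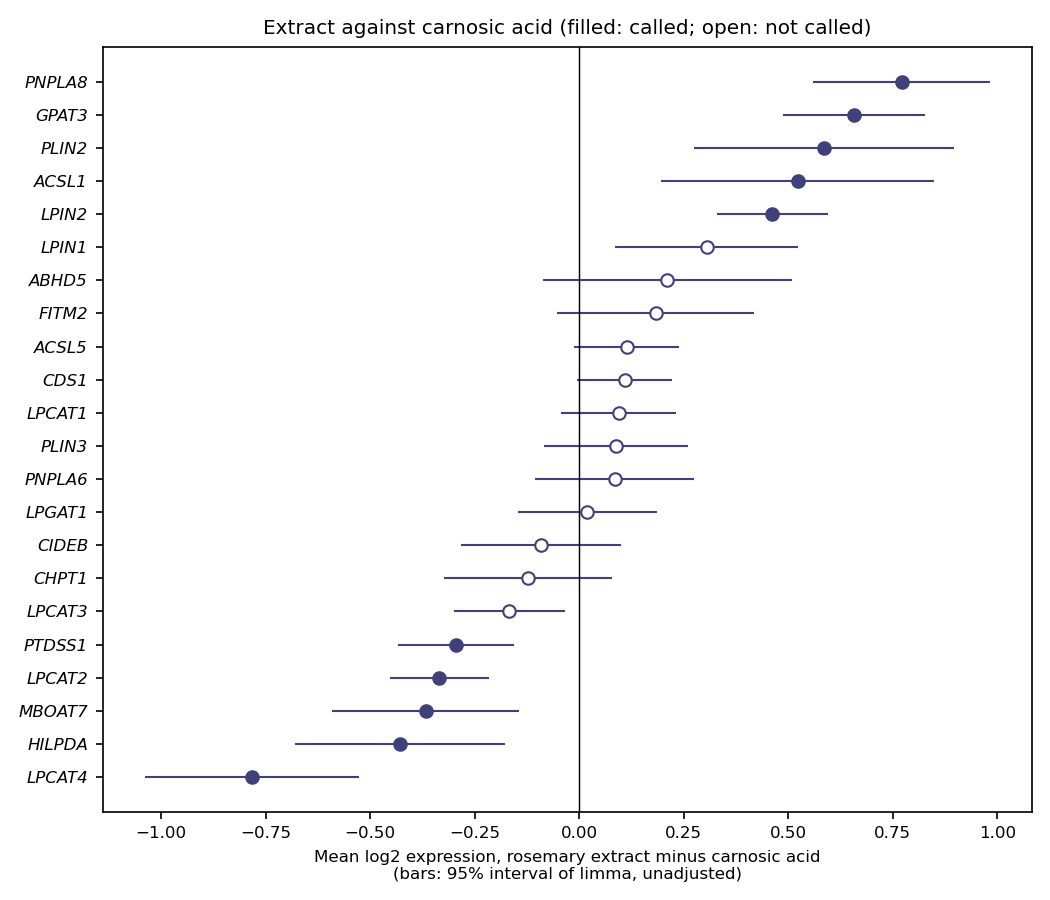
Difference of mean log2 expression, rosemary extract minus carnosic acid, for the 22 members called in at least 1 comparison; points are the differences, bars limma's unadjusted 95% intervals, and filled points were called. PNPLA8 (0.77) is at the top and LPCAT4 (-0.78) at the bottom.

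Neighbouring genes of these pathways, outside the members, were counted in 8 lists, over the genes with a named row that passed the dim filter. The medians below are log2 changes with the extract and with carnosic acid, and over all genes tested they were -0.018 and -0.011. Of all genes tested, 21.8% were called higher and 16.3% lower with the extract, and 12.9% and 6.12% with carnosic acid. The lists are short, and whether any differs from these shares was not tested. Phosphatidate phosphatases and phospholipases D were called higher in 3 of 6 with the extract and in 3 of 6 with carnosic acid, 0 lower (medians 0.37 and 0.30). PLPP2, PLPP5 and PLPP3 rose with the extract by 0.56 ± 0.05, 0.79 ± 0.11 and 0.69 ± 0.13 (log2), and with carnosic acid by 0.69 ± 0.05, 0.44 ± 0.11 and 0.48 ± 0.13. In glycerol-3-phosphate supply, 1 of 6 was higher and 1 lower with the extract and 1 higher with carnosic acid (medians 0.02 and 0.12). AQP3, a channel for water and glycerol, rose by 0.46 ± 0.09 and 0.87 ± 0.09, and GPD1L fell by 0.64 ± 0.14 with the extract (-0.40, adjusted p = 0.0622, with carnosic acid). GK5, a glycerol kinase, was not called (0.19 and 0.13). For cardiolipin and phosphatidylinositol synthesis, 2 of 7 were higher and 2 lower with the extract and 1 higher with carnosic acid (medians -0.15 and -0.14). CDIPT, which makes phosphatidylinositol from the product of CDS1 and CDS2, rose by 0.60 ± 0.07 and 0.51 ± 0.07. PGS1, the first committed enzyme towards cardiolipin, rose by 0.37 ± 0.09 with the extract, and LCLAT1 fell by 0.43 ± 0.11.

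In ether lipid synthesis 1 of 5 was higher and 3 lower with the extract, and 1 higher and 1 lower with carnosic acid (medians -0.32 and -0.16). GNPAT, the peroxisomal acyltransferase that starts the ether route, fell by 0.74 ± 0.05 (log2) and by 0.54 ± 0.05. FAR2, which makes fatty alcohols, fell by 1.21 ± 0.09 with the extract and had a change of -0.26 (adjusted p = 0.0586) with carnosic acid. SELENOI, an ethanolamine phosphotransferase, rose by 0.95 ± 0.08 and 0.56 ± 0.08. Of 22 genes listed as phospholipases A2 and lysophospholipases, 9 were tested, and no PLA2G gene was among them. Of the 9, 4 were higher and 1 lower with the extract, and 2 higher and 1 lower with carnosic acid (medians 0.11 and 0.09). ABHD4, a lysophospholipase of the N-acylethanolamine route, rose by 3.05 ± 0.09 and 2.11 ± 0.09. GDPD3 rose by 0.95 ± 0.19 with the extract, and PLAAT4 fell by 1.07 ± 0.21 and by 0.82 ± 0.21.

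Of 19 other genes listed for droplets and lipoprotein assembly, 9 were tested, and neither MTTP nor APOB was among them. Of the 9, 4 were higher and 2 lower with the extract, and 2 higher and 1 lower with carnosic acid (medians 0.12 and 0.0016). HSD17B11, a droplet-bound dehydrogenase, fell by 1.86 ± 0.10 (log2) and by 1.04 ± 0.10. The droplet protein AUP1 rose by 0.31 ± 0.06 and 0.21 ± 0.06, and the lipid transfer protein VPS13C by 0.55 ± 0.11 and 0.35 ± 0.11. Of 26 genes listed for fatty acid uptake, binding and activation outside the ACSL family, 13 were tested. No CD36 or SLC27 gene was among the 13, so transporters for uptake were not covered, and several were ACOT thioesterases. Of the 13, 3 were higher and 3 lower with the extract, and 1 each with carnosic acid (medians 0.02 and -0.034). The acetyl-CoA synthetase ACSS2 rose by 1.45 ± 0.10 and 0.86 ± 0.10, and the medium-chain synthetase ACSM3 fell by 1.21 ± 0.10 and by 0.74 ± 0.10. ACSF2 fell by 0.56 ± 0.10 with the extract, its carnosic acid change was not called (-0.096, adjusted p = 0.556), and the direct difference of -0.47 was (adjusted p = 0.00712). Of 14 PPAR target and fatty acid oxidation genes, 3 were higher and 5 lower with the extract, and 2 higher and 3 lower with carnosic acid (medians -0.093 and 0.06). HADH, an enzyme of mitochondrial beta-oxidation, fell by 1.44 ± 0.09 and by 0.61 ± 0.09. The nuclear receptor PPARG fell by 1.14 ± 0.08 and by 0.57 ± 0.08, while PPARD rose by 0.80 ± 0.06 and 0.45 ± 0.06.

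The 8 genes that share only letters or ancestry with the members were mostly G-patch genes, which take part in RNA processing. Of the 7 that passed the filter, 4 were called higher and 1 lower with the extract, and 1 higher with carnosic acid. The shares of all genes tested were 21.8% higher and 16.3% lower with the extract, and 12.9% and 6.12% with carnosic acid. GPATCH2 rose by 0.44 ± 0.10 (log2) and 0.33 ± 0.10, GPATCH2L by 0.43 ± 0.12 and GPATCH3 by 0.30 ± 0.11 with the extract, and GPATCH4 fell by 0.26 ± 0.08. CIDECP1 rose by 0.43 ± 0.13 with the extract, and which gene its probes measured is uncertain because it resembles CIDEC. GPATCH1 and GPATCH11 were not called, and MBOAT4 was dim (highest value 3.79). Counted with these genes, the set had 18 higher and 7 lower of 53 with the extract, and 14 higher and 0 lower with carnosic acid.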

How the data were processed

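HT-29 RNA was hybridised to Affymetrix GeneChip 2.0 ST arrays, 9 in all, 3 per group, per the labels' protocols. The deposited values are log2 RMA expression that the authors made with oligo, a package of R, per the labels (the log2 scale was read from the values). RMA corrects background, normalizes between arrays and summarises probes. It compresses large changes and gives no detection call. No source used here gives versions or the genome build of the probes.

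Of 53617 rows, 16098 had 1 symbol in the platform annotation, all matched to RefSeq by Entrez identifier with 0 symbols changed. The brightest row of each of 14884 genes was kept. The dimmest 25% were left out, which left 11163. Group means were fitted with limma 3.58.1 in R 4.3.3 (lmFit, eBayes with trend, 6 residual degrees of freedom). Benjamini-Hochberg adjustment ran over all 11163 genes. The fit was tried on simulated data, in which far fewer genes changed than were called here. It recovered 15.2 to 16.4% of 1.2-fold, 77.2 to 80% of 1.5-fold and 96.2 to 96.6% of 2-fold changes, and 4.50 to 5.85% of its calls were false. Small changes that were not called may therefore have been missed. Values per array are given for members called with an absolute log2 change of at least 0.5 and for a fixed set of key enzymes. Up to 3 genes with the smallest p are named from each neighbouring list. Other called members are given by their change. Members and lists were chosen with earlier results of these data known. Alternatives covered row choice, filters, scaling, arrays in the fit, the variance prior, the threshold, each array left out and the replicate number as a block. The series calls the replicates biological without naming cultures or days, so p-values measure the spread between these samples, which may be technical.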

Additional observations from a re-analysis of the deposited data

How the results depend on the processing

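The counts of members called against untreated cells stayed within 1.5 times of the main counts under most alternatives. With the extract, the higher count was 12 to 14 and the lower count 4 or 5 when 1 array was left out, against 14 and 6. No fit without 1 array therefore kept a lower count of 6. The lower count was also 4 with no filter on dim genes, with the dimmer 50% left out and in a fit to every array row. Only an adjusted p under 0.01 moved the lower count by over 1.5 times, to 3. With carnosic acid the higher count was 11 to 13 without 1 array and 9 at an adjusted p under 0.01, and the lower count was 0 in every setting tried. Between the treatments, the higher count was 3 to 5 and the lower count 3 to 6 without 1 array. Both were 3 in a fit to every array row and 3 at an adjusted p under 0.01, and the lower count was 3 in a fit to the 6 arrays compared. With the replicate block the counts were 14 and 5, 13 and 0, and 5 and 6, and the block ended the CIDEB call with the extract and added LPCAT3 between the treatments. Same-numbered arrays did not all deviate together (correlations -0.219 to 0.238), so the numbers were not taken as pairs.

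Over all genes, the share of calls that were higher with carnosic acid was 67.8%, 52.4% under median centring and 60.8% under cyclic loess, while 100% of the called members were higher under each. Of the called members, 15 of 20 with the extract, 9 of 13 with carnosic acid and 6 of 10 between the treatments passed at an adjusted p under 0.05 in every setting other than the stricter threshold. The causes of the lost calls were not tested.

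Signs turned only for differences that were not called. For carnosic acid against untreated these were DGAT1 (-0.0023, cyclic loess), DGAT2 (0.011 under cyclic loess, and -0.062 to 0.035 without 1 array), HILPDA (-0.041 to 0.19 without 1 array), LPCAT4 (-0.022 under median centring, -0.020 under cyclic loess, -0.095 to 0.089 without 1 array), MBOAT7 (-0.045 and -0.042 under the same scalings, -0.051 to 0.093 without 1 array), PNPLA2 (-0.25 with the mean of its rows, -0.046 and -0.048 under the scalings, -0.073 to 0.061 without 1 array) and PTDSS1 (-0.036 and -0.034 under the scalings, -0.042 to 0.069 without 1 array). Between the treatments they were CHKA (-0.11 to 0.0024) and LPGAT1 (-0.052 to 0.075), each as the range without 1 array. The 3 arrays per group, signal near background for low rows and values that RMA repeats across arrays limit what small differences can show.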
